A study of Mus musculus with 6 samples.

Results

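The genes described here are 10 ligands and receptors of the vascular endothelial growth factor (VEGF) and angiopoietin systems, out of 19938 genes measured on the arrays. They were taken by symbol, as the array rows annotated to exactly 1 gene, and each of the 10 had a single row. They comprise the VEGF ligands Vegfa, Vegfb and Vegfc, the VEGF receptors Flt1, Kdr and Flt4, the angiopoietins Angpt1 and Angpt2, and the TIE receptors Tek and Tie1. RNA came from mouse embryonic stem cells of the W4/129S6 background, all carrying a GFP reporter knocked into the Nkx2-1 locus, which were differentiated for 14 days and sorted by fluorescence. The Nkx2-1 high group (genotype label Nkx2-1GFP+, GFP-positive cells) has 3 samples and the Nkx2-1 low group (Nkx2-1GFP-, GFP-negative cells) has 3. The low samples are defined by absent fluorescence and are not an untreated culture, and the cell types they hold are not labelled. The series title names the GFP-positive cells as lung and thyroid progenitors.

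VEGF-A drives the growth of blood vessels, mainly through the receptor tyrosine kinase VEGFR2 (gene Kdr), while VEGFR1 (Flt1) binds VEGF-A and VEGF-B and largely acts as a trap for ligand. VEGF-C and VEGF-D activate VEGFR3 (Flt4), which is best known for the growth of lymphatic vessels. Angiopoietin 1 activates the receptor TIE2 (Tek) and steadies vessels, angiopoietin 2 acts on the same receptor in a manner that depends on context, and TIE1 (Tie1) is a partner of TIE2. In the embryonic lung the epithelium is a source of VEGF-A, and the receptors lie mostly on the endothelium around it.

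Expression is given as deposited log2 values. Values of different genes come from different probes and are not compared with each other in level. A background level of 4.30 marks the 95th percentile over all values of olfactory and vomeronasal receptor rows, genes not thought to be active in such cells. The gene sorted on, Nkx2-1, was at 7.62, 7.77 and 7.77 in Nkx2-1 high and at 5.42, 5.23 and 5.34 in Nkx2-1 low. Of 13 markers of endoderm and epithelium 0 rose and 1 fell (before adjustment, 2 were higher and 3 lower at a p under 0.05). The fall was in Epcam, an epithelial adhesion gene, at 4.25, 4.18 and 4.51 in Nkx2-1 high and 5.05, 5.01 and 5.32 in Nkx2-1 low, which puts the high samples at the background level. Foxa2, a defining factor gene of endoderm, averaged 5.74 ± 0.09 in Nkx2-1 high and 5.78 ± 0.18 in Nkx2-1 low (SD, n = 3 each).

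Flt4, Tek and Vegfc rose in Nkx2-1 high, and none of the other 7 members passed the test. The 3 calls are 30% of the members, where 2.90% of all genes rose and 3.09% fell (limma, adjusted p under 0.05 over all genes). The members' median log2 difference was 0.06, against -0.01 over all genes, and their median absolute difference was 0.20, against 0.10. The groups did not overlap for 5 members, the 3 that rose and Angpt1 and Tie1, both lower in Nkx2-1 high. Over all genes the groups did not overlap for 24.7%, with 11.2% higher and 13.5% lower. These arrays measure RNA of whole sorted fractions, so fewer cells that express a gene and less of its RNA per cell cannot be told apart.

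**Figure D1:**
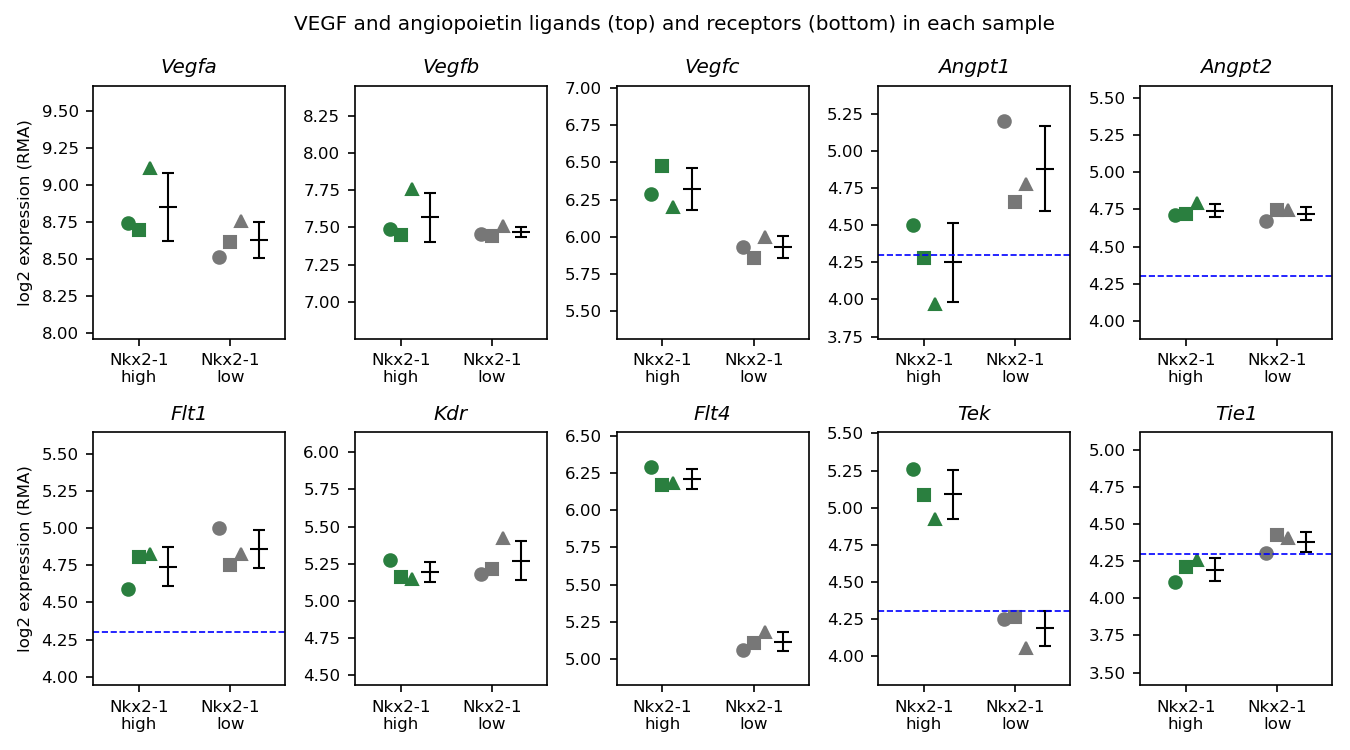
Log2 expression of the 5 ligand genes (top) and the 5 receptor genes (bottom) in each sample, with Nkx2-1 high in green and Nkx2-1 low in grey. Circles, squares and triangles are the samples numbered 1, 2 and 3, black marks are the mean ± SD (n = 3), and the dashed line is the background level of 4.30 where it lies in the range shown; every panel spans the same number of log2 units. Flt4, Tek and Vegfc have all green points above all grey points, and Angpt1 and Tie1 have them below.

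Among the VEGF receptors Flt4 stood apart. Flt4, which encodes VEGFR3, was at 6.29, 6.17 and 6.18 in Nkx2-1 high and at 5.06, 5.11 and 5.18 in Nkx2-1 low. The lowest high sample lay 0.99 log2 units above the highest low sample, and all samples were above background. Against a stricter level of 5.33, the 99th percentile of the olfactory and vomeronasal receptor rows, all low samples were under background. All high samples were above that level. Low values that near background limit what the fold can show. The difference was 1.10 ± 0.08 (SE, 95% interval 0.92 to 1.27), a 2.14-fold rise (limma adjusted p = 6.84e-05), and it ranked 30 among all genes by p. It kept its call in all 6 fits that left out 1 sample, with differences from 1.06 to 1.13. An exact two-sided permutation test on Flt4 alone gave p = 0.1, and a design of 3 against 3 cannot give less.

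The other VEGF receptors did not move with it. Kdr, which encodes VEGFR2, the main signalling receptor for VEGF-A, was at 5.27, 5.16 and 5.15 in Nkx2-1 high and at 5.18, 5.21 and 5.42 in Nkx2-1 low. The samples of both groups were interleaved, and the difference was -0.08 ± 0.09 (SE, 95% interval -0.28 to 0.12, limma adjusted p = 0.718). Flt1, which encodes VEGFR1, was at 4.59, 4.80 and 4.83 in Nkx2-1 high and at 4.9996, 4.75 and 4.82 in Nkx2-1 low. These values overlap as well, with a difference of -0.12 ± 0.10 (SE, 95% interval -0.34 to 0.10, limma adjusted p = 0.579). The intervals of Kdr and Flt1 end well below that of Flt4, so the measured differences were unequal, although they were not tested against each other. Kdr and Flt1 averaged under 5.33 in both groups, the 99th percentile of the olfactory and vomeronasal receptor rows. Signal that near background limits what their level values can show.

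Of the VEGF ligands, Vegfc rose. Vegfc, a ligand of VEGFR3, was at 6.29, 6.47 and 6.20 in Nkx2-1 high and at 5.93, 5.85 and 6.0002 in Nkx2-1 low. The groups were separated by 0.20 log2 units. The difference was 0.39 ± 0.09 (SE, 95% interval 0.19 to 0.60), a 1.31-fold rise with a limma adjusted p of 0.0356. This call is near the threshold and was lost in 5 of the 6 fits that left out 1 sample. It held without Nkx2-1 high replicate 3 (limma adjusted p = 0.0293). When Nkx2-1 high replicate 1 was left out the adjusted p was 0.0863, and when replicate 2 of that group was left out it was 0.136. Leaving out Nkx2-1 low replicate 1, 2 or 3 gave 0.0930, 0.130 and 0.0594 in that order, while the difference stayed between 0.32 and 0.45 over the 6 such fits.

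Vegfd, which encodes the other ligand of VEGFR3 and is not among the 10, went the opposite way. It was at 6.99, 6.85 and 6.36 in Nkx2-1 high and at 7.48, 7.49 and 7.43 in Nkx2-1 low, so every high sample was below every low sample. The fall was -0.73 ± 0.14 on the log2 scale (SE, limma adjusted p = 0.0162). The threshold was missed when replicate 1 or replicate 2 of Nkx2-1 low was left out, at adjusted p-values of 0.0609 and 0.0617.

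Vegfa and Vegfb did not pass. Vegfa, the main angiogenic ligand, was at 8.74, 8.69 and 9.11 in Nkx2-1 high and at 8.52, 8.61 and 8.76 in Nkx2-1 low. The highest low sample was above 2 of the 3 high samples, and the difference was 0.22 ± 0.12 (SE, 95% interval -0.05 to 0.49, limma adjusted p = 0.371). The upper bound leaves room for a rise as large as that of Vegfc. Vegfb, a ligand of VEGFR1, was at 7.49, 7.45 and 7.76 in Nkx2-1 high and at 7.46, 7.45 and 7.51 in Nkx2-1 low. Only Nkx2-1 high replicate 3 lay away from the other 5 samples, and the difference was 0.10 ± 0.09 (SE, 95% interval -0.11 to 0.31, limma adjusted p = 0.653).

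In the angiopoietin system the receptor gene Tek rose. Tek, which encodes TIE2, was at 5.26, 5.08 and 4.92 in Nkx2-1 high and at 4.25, 4.27 and 4.05 in Nkx2-1 low. All 3 low samples were under the background level and all 3 high samples above it, with a gap of 0.66 between the groups. At a stricter level of 5.33, the 99th percentile of the olfactory and vomeronasal receptor rows, every Tek value was under background. The fitted difference was 0.90 ± 0.10 (SE, 95% interval 0.67 to 1.13, limma adjusted p = 0.000999). The mean of Tek in Nkx2-1 high was 1.73-fold above the background level, which is an estimate and not a lower bound. Against the stricter level of 5.33 no such fold can be given. The call held in each of the 6 fits without 1 sample, with adjusted p up to 0.00739.

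Tie1, the partner receptor, did not follow Tek. It was at 4.11, 4.21 and 4.26 in Nkx2-1 high and at 4.30, 4.42 and 4.41 in Nkx2-1 low, close to background throughout. The groups were separated by 0.04 log2 units only, and the difference was -0.19 ± 0.08 (SE, 95% interval -0.36 to -0.01, limma adjusted p = 0.243). The upper end of this interval lies below the lower end of that of Tek.

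Of the TIE2 ligands, Angpt1 was lower in each Nkx2-1 high sample than in any Nkx2-1 low sample, but just missed the threshold. Angpt1, which encodes the activating ligand and is usually made by mesenchymal and mural cells, was at 4.499, 4.28 and 3.97 in Nkx2-1 high and at 5.20, 4.66 and 4.78 in Nkx2-1 low. The mean in Nkx2-1 high, 4.25, was under background and that in Nkx2-1 low, 4.88, above it. The difference was -0.63 ± 0.16 (SE, 95% interval -0.99 to -0.27, limma adjusted p = 0.0517). It passed in 5 of 16 alternative fits, among them with the replicate number as a block (limma adjusted p = 0.00743). Another was the fit with Nkx2-1 high replicate 1 left out (adjusted p = 0.0441). Angpt1 missed in the others (adjusted p up to 0.152). Angpt2, usually a product of endothelial cells, was at 4.71, 4.72 and 4.79 in Nkx2-1 high and at 4.67, 4.75 and 4.74 in Nkx2-1 low. Its 6 values were nearly level, with a difference of 0.02 ± 0.07 (SE, 95% interval -0.15 to 0.19, limma adjusted p = 0.921). All of these values were under the stricter level of 5.33, and signal that near background limits what a level profile can show.

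**Figure D2:**
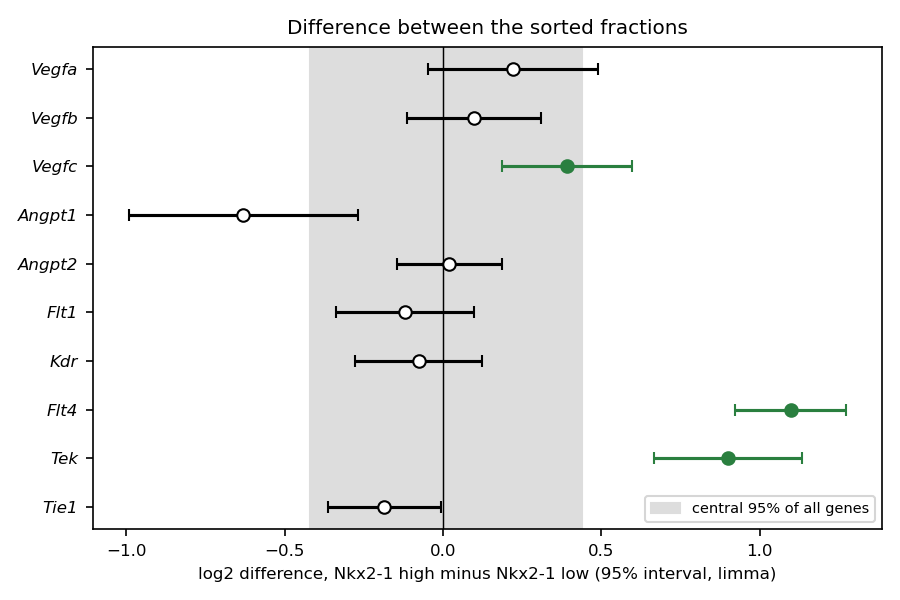
Log2 difference (Nkx2-1 high minus Nkx2-1 low) of each gene with its 95% interval from limma. Filled green points passed at an adjusted p under 0.05, open points did not, and the grey band holds the central 95% of the differences of all genes. Flt4 at 1.10 and Tek at 0.90 lie outside the band, and Vegfc at 0.39 lies inside it.

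The genes whose profiles over the 6 samples came nearest to those of the called members were found by the root mean square difference of mean-centred log2 values, which is governed mostly by the group difference. Nearest to Flt4 were Dusp1, which encodes a phosphatase of MAP kinases (0.057), Rtl4 (0.065) and Fat3, an atypical cadherin gene (0.066). Nearest to Tek were Spock3 (0.040), Tmem176a (0.059) and Man1c1 (0.060), and nearest to Vegfc were 1700001L05Rik (0.051), Aph1c (0.058) and the transcription factor gene Zeb2 (0.061). None of the 9 is on the endothelial list used here. That list holds only 27 of the 19938 genes, so its absence among 9 genes says nothing about cell type.

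The promoter windows of the genes that rose, and that of Vegfa, are shown because these genes carry the contrast between members that changed and the main ligand, which did not pass. RefSeq (GRCm38.p6) gave windows for 8 of the 10 genes, each of 300 bases around an annotated start, with 1 window per gene except for Vegfa, which has 2. The Vegfa window shown is the one at the 5′ end of the annotated gene. Flt4 is at chr11:49609429-49609728 (plus strand), Tek at chr4:94739039-94739338 (plus strand), Vegfc at chr8:54077282-54077581 (plus strand) and Vegfa at chr17:46032328-46032627 (minus strand). Capitals mark GGAA or its reverse complement TTCC, the core of sites of ETS factors, which many endothelial genes carry, and CAAG or CTTG, the core of sites of NKX2-1.
Flt4: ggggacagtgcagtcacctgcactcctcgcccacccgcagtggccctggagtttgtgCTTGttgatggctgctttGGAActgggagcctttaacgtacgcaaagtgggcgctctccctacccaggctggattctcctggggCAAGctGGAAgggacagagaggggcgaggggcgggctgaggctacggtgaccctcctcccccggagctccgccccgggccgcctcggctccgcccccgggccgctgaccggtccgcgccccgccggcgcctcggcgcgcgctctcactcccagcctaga
Tek: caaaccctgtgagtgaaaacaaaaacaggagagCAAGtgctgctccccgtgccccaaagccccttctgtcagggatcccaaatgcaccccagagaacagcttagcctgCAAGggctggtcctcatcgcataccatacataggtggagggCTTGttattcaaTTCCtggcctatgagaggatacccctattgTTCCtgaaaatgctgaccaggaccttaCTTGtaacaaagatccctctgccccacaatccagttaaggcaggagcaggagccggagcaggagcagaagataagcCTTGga
Vegfc: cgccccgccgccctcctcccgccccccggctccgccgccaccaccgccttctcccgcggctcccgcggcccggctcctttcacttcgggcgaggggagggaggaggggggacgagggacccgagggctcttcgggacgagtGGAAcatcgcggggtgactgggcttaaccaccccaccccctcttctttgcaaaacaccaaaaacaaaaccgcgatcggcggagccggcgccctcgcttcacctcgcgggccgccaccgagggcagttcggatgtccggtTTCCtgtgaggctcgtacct
Vegfa: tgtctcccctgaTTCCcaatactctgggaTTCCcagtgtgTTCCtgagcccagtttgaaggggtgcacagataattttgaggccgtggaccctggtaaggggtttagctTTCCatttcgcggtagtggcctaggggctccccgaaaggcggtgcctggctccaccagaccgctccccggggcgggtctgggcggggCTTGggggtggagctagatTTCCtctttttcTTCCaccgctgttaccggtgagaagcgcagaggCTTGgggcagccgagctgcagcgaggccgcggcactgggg
The Tek window holds 5 matches to CAAG, that of Flt4 2, that of Vegfa 2 and that of Vegfc 0. Such short cores are common. Of all 32851 windows of this length, 90.6% hold CAAG on either strand, with a median of 2 matches. GGAA occurs 2 times each in the windows of Flt4, Tek and Vegfc and 6 times in that of Vegfa, and 96.0% of all windows hold it. No match of GGAA overlaps a match of CAAG in these windows. The core of the hypoxia response element, ACGTG on either strand, is in none of these 4 windows and in 19.6% of all windows. The other Vegfa window, at chr17:46025114-46025413 (minus strand) and not printed, holds ACGTG 1 time, GGAA 3 times and CAAG 1 time. A match is a description of the letters and not a bound site. Sequence outside these windows was not searched, so the lack of a match does not speak for the rest of a gene or its surroundings.

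Other genes of the 2 systems moved in both directions. Of 23 measured co-receptors, processing factors and related ligands 1 rose and 3 fell, and their median difference was 0.04, against -0.01 over all genes. With the replicate number as a block the counts were 3 and 5. Plxnd1, which encodes a semaphorin receptor of endothelium and other cells, rose by 0.66 ± 0.14 (limma adjusted p = 0.0270, lost in 5 of the 6 fits without 1 sample, up to 0.102). Besides Vegfd, the falls were in Vash2, which encodes a vasohibin, by -0.46 ± 0.10 (limma adjusted p = 0.0244, lost in 5 of the 6 fits without 1 sample, up to 0.103), and in Angptl1, an angiopoietin-like gene not above background in either group.

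Of the genes that act directly on VEGF-C or VEGFR3, Nrp2 and Adamts3 lay close to the threshold without passing. Nrp2, which encodes a neuropilin that binds VEGF-C, was at 6.997, 6.91 and 7.15 in Nkx2-1 high and at 7.34, 7.30 and 7.52 in Nkx2-1 low. Its groups did not overlap and the difference was -0.37 ± 0.09 (limma adjusted p = 0.0536). It was called lower in 6 of the 16 alternatives, among them without Nkx2-1 high replicate 3 (adjusted p = 0.0386). Adamts3, the protease that activates VEGF-C, was at 7.36, 7.40 and 7.90 in Nkx2-1 high and at 6.75, 6.96 and 7.20 in Nkx2-1 low. It differed by 0.58 ± 0.16, also without overlap and without passing (limma adjusted p = 0.0636). It was called higher in 7 of the 16 alternatives, among them without Nkx2-1 low replicate 3 (adjusted p = 0.0473). Ccbe1, a cofactor of that protease, differed by 0.04 ± 0.10 (limma adjusted p = 0.865).

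Of 30 measured genes of signal transduction below these receptors 3 rose and 1 fell, with a median difference of 0.05. Dusp1 rose by 1.20 ± 0.08 (limma adjusted p = 3.83e-05) and kept its call in all 6 fits without 1 sample. The adaptor gene Shc1 rose by 0.40 ± 0.09 (limma adjusted p = 0.0248, lost in 5 of these 6 fits, up to 0.103) and the kinase gene Prkcb by 0.44 ± 0.10 (limma adjusted p = 0.0353, lost in 4, up to 0.141). The kinase gene Fyn fell, by -0.50 ± 0.09 (limma adjusted p = 0.00892), and kept its call. These genes serve many receptors besides those of VEGF and angiopoietin.

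**Figure D3:**
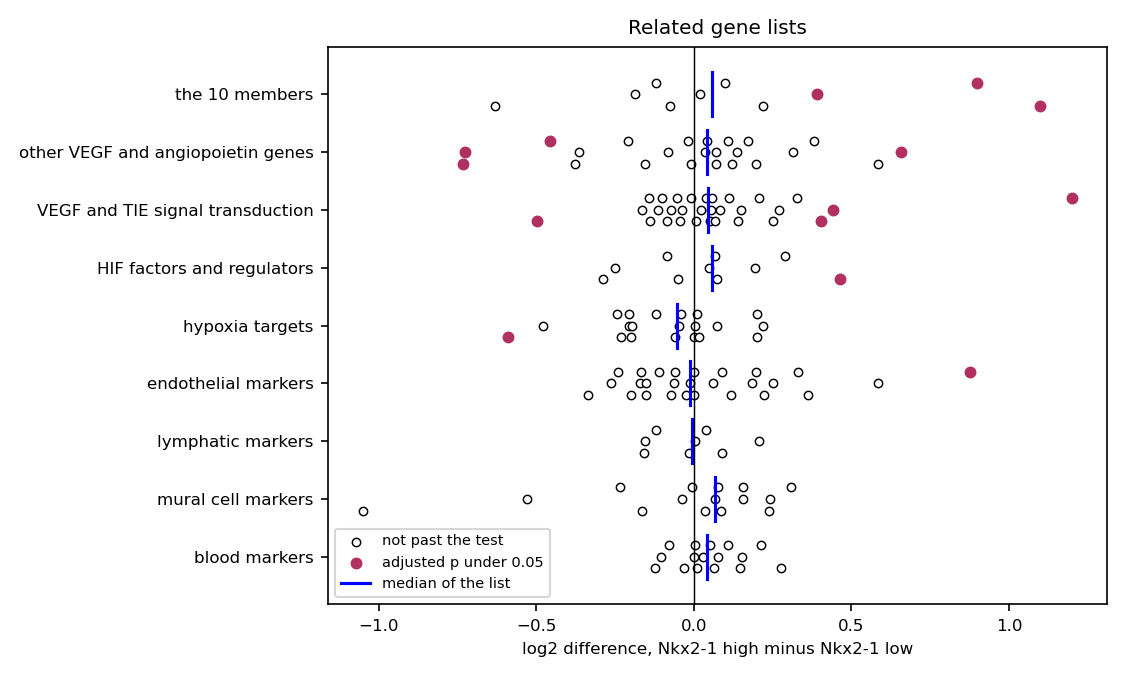
Log2 difference (Nkx2-1 high minus Nkx2-1 low) of the 10 members and of the genes of 8 related lists, 1 point per gene, spread vertically to separate points. Filled points passed at an adjusted p under 0.05 and blue bars are list medians, which lie between -0.05 and 0.07 in these lists. The endothelial list has 1 filled point, Eng.

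Since these receptors are known mainly from endothelium, markers of that and neighbouring cell types are given beside the rises of Flt4 and Tek. Of 27 endothelial markers 1 rose and 0 fell, with a median difference of -0.01. The count moved between 0 and 3 calls over the 16 alternatives. Before adjustment, 6 were higher and 4 lower at a p under 0.05. Of the 27, 21 were above background in at least 1 group, so the counts and the median include markers with little signal. The summed linear signal of the list ran from 1052 to 1191 in Nkx2-1 high and from 979 to 1024 in Nkx2-1 low. Cdh5, the VE-cadherin gene and a defining marker, was under background in both groups, at 3.57, 3.79 and 3.95 in Nkx2-1 high and at 3.88, 3.95 and 3.98 in Nkx2-1 low. Pecam1, another defining marker, was at 4.59, 4.34 and 4.37 in Nkx2-1 high and at 4.002, 4.25 and 4.06 in Nkx2-1 low, on either side of the background level. Its groups did not overlap, but it did not pass (difference 0.33 ± 0.10, limma adjusted p = 0.0985).

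The marker that rose was Eng, which encodes endoglin, a TGF-beta co-receptor of endothelium and some mesenchyme. It was at 7.02, 6.73 and 6.32 in Nkx2-1 high and at 6.11, 5.96 and 5.37 in Nkx2-1 low, a difference of 0.88 ± 0.21 (limma adjusted p = 0.0371). Leaving out Nkx2-1 high replicate 1 or 2 gave adjusted p-values of 0.122 and 0.121, and leaving out Nkx2-1 low replicate 2 or 3 gave 0.0747 and 0.0781. Emcn, which encodes endomucin, was at 7.09, 6.74 and 6.04 in Nkx2-1 high and at 6.21, 6.24 and 5.66 in Nkx2-1 low, with overlap and without passing (limma adjusted p = 0.228). It rose without Nkx2-1 high replicate 3 (difference 0.88, adjusted p = 0.0283), without both samples numbered 3 (0.69, adjusted p = 0.0212) and with the replicate number as a block (adjusted p = 0.0146). Aplnr, which encodes the apelin receptor, just missed in the other direction (-0.33 ± 0.09, limma adjusted p = 0.0519) and was called lower in 6 of the 16 alternatives, among them without Nkx2-1 high replicate 3 (adjusted p = 0.0408). In the main fit, 1 endothelial marker thus rose and 0 fell beside the rises of Flt4 and Tek. Before adjustment, Eng, Emcn, Pecam1, Plvap, Lmo2 and Egfl7 were higher at a limma p under 0.05. Aplnr, Fli1, Rasip1 and Sox7 were lower at that level, and some of these genes were near background. The part of endothelial cells in the rises of Flt4 and Tek was not tested.

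Of 8 lymphatic markers 0 rose and 0 fell, and none passed at an unadjusted p under 0.05 either. Prox1, the defining factor gene of lymphatic endothelium and also of some epithelia, differed by 0.21 ± 0.10 (limma adjusted p = 0.309), and Stab1 by -0.16 ± 0.08. Of 16 blood markers 0 rose and 0 fell, also at an unadjusted p under 0.05, and Ptprc, the pan-leukocyte gene, was under background in every sample. Cd68, a macrophage gene, differed by 0.28 ± 0.13 and Gata1 by 0.15 ± 0.08, neither past the test. Of 15 mural cell markers 0 rose and 0 fell. Before adjustment, limma put 3 of them higher and 2 lower at a p under 0.05. The 3 higher were Acta2 (difference 0.31), Kcnj8 (0.24) and Tagln (0.24), and the 2 lower were Rgs5 and Vtn. The pericyte gene Rgs5 was at 4.57, 4.44 and 4.24 in Nkx2-1 high and at 5.43, 4.65 and 4.75 in Nkx2-1 low (difference -0.53 ± 0.18, limma adjusted p = 0.149), and Vtn differed by -1.05 ± 0.30 (limma adjusted p = 0.0766). Vtn was called lower in 4 of the 16 alternatives, among them without Nkx2-1 low replicate 1 (-1.32, adjusted p = 0.0470), and both genes were called lower with the replicate number as a block (adjusted p = 0.00919 for Vtn and 0.0360 for Rgs5).

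Beside the lower values of Angpt1 and Vegfd, genes of mesenchyme and of neurons were lower in Nkx2-1 high. Of 12 mesenchyme markers 6 fell and 0 rose, with a median difference of -0.82, and their summed linear signal ran from 5843 to 7001 in Nkx2-1 high and from 7957 to 9316 in Nkx2-1 low. The list was not lower throughout, since the fibronectin gene Fn1 was at 10.97, 10.89 and 10.48 in Nkx2-1 high and at 10.41, 10.34 and 10.11 in Nkx2-1 low. Fn1 did not pass (0.49 ± 0.13, limma adjusted p = 0.0643) but was called higher in 7 of the 16 alternatives, among them without Nkx2-1 high replicate 3 (adjusted p = 0.0106). Of 8 neuronal markers 6 fell and 0 rose, with a median of -0.86 and sums from 267 to 374 in Nkx2-1 high and from 550 to 582 in Nkx2-1 low. The part of either cell type in the values of Angpt1 and Vegfd was not tested. Of 14 lung and thyroid markers 4 rose, Hhex, Pax8, Sftpa1 and Bmp4, and 1 fell. The fall was in Id2, by -0.46 ± 0.10 (limma adjusted p = 0.0223). The other 9 did not pass, and 10 of the 14 were above background in at least 1 group.

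Genes of the hypoxia response were examined because low oxygen induces Vegfa through hypoxia-inducible factors. Of 20 measured hypoxia targets 0 rose and 1 fell, with a median difference of -0.05. The fall was in Car9, which encodes a carbonic anhydrase and was not above background in either group. Without Nkx2-1 high replicate 3 the count was 0 higher and 3 lower, and it was the same without both samples numbered 3, with Slc2a1 and P4ha2 as the further falls. Leaving out Nkx2-1 high replicate 3 gave -0.57 ± 0.13 for the glucose transporter gene Slc2a1 (limma adjusted p = 0.0419) and -0.79 ± 0.14 for P4ha2, which encodes a subunit of a collagen prolyl hydroxylase (limma adjusted p = 0.0125). Of 10 hypoxia-inducible factors and their regulators 1 rose and 0 fell. This was Hif3a, at 7.01, 7.15 and 7.04 in Nkx2-1 high and at 6.46, 6.71 and 6.64 in Nkx2-1 low (difference 0.46 ± 0.09, limma adjusted p = 0.0150), and it missed the threshold without both samples numbered 3 and when Nkx2-1 high replicate 2 was left out (adjusted p = 0.0746). Hif1a differed by 0.19 ± 0.10 and Epas1 by 0.29 ± 0.09, neither past the test.

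Within each group, however, the sample numbered 3 had the highest Vegfa and the highest level of most hypoxia targets. Vegfa in replicate 3 was 0.40 log2 units above the mean of the other samples in Nkx2-1 high and 0.20 above it in Nkx2-1 low. Of the 20 hypoxia targets 18 were higher in replicate 3 than the mean of the other samples in both groups, and 0 were lower in both, where 31.2% of all genes were higher in both. The median excess of the targets was 0.44 in Nkx2-1 high and 0.25 in Nkx2-1 low, against 0.01 over all genes in each. Slc2a1 was at 8.98, 9.04 and 9.98 in Nkx2-1 high and at 9.41, 9.48 and 9.84 in Nkx2-1 low. Hk2, the hexokinase gene, was at 7.39, 7.37 and 8.14 in Nkx2-1 high and at 7.51, 7.64 and 7.88 in Nkx2-1 low. For both genes replicate 3 was the highest sample of its group, and the groups overlapped.

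**Figure D4:**
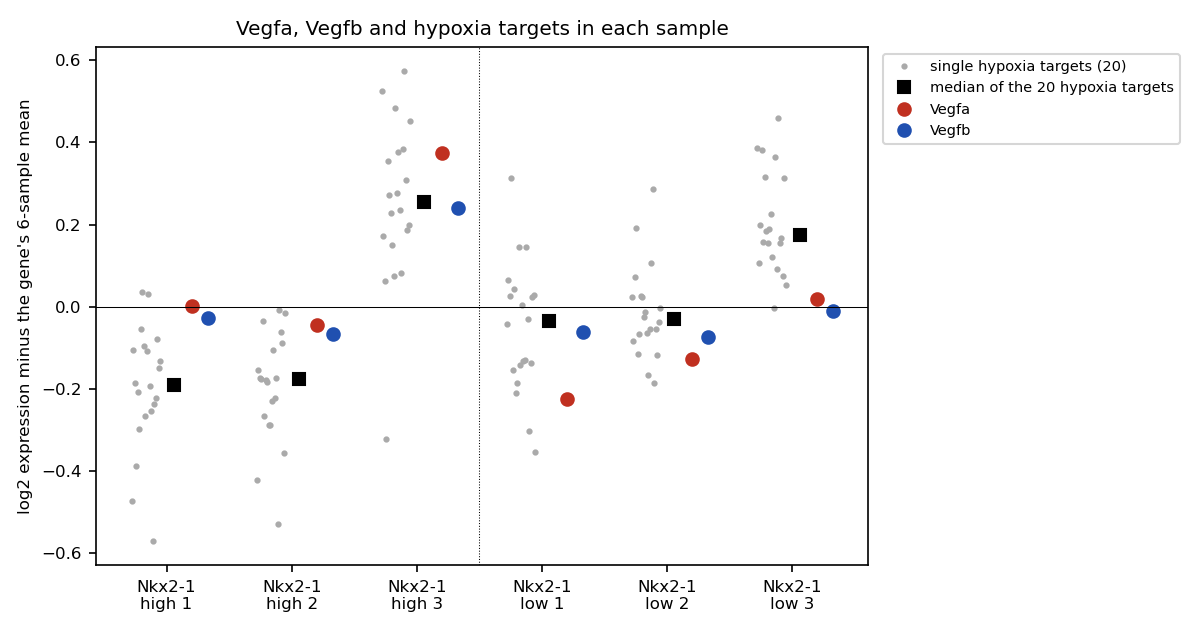
Log2 expression of Vegfa (red), Vegfb (blue) and the 20 hypoxia targets (small grey points, with their median as a black square) in each sample, each gene less its own mean over the 6 samples. The sample numbered 3 has the highest Vegfa, Vegfb and median target in both groups; samples of a group have no order.

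Of the 10 members, 4 (40.0%) were higher in replicate 3 than the mean of the other samples in both groups, namely Vegfa, Vegfb, Tie1 and Angpt2. A further 2 were lower in both. Over all 19938 genes, 6214 (31.2%) were higher in both and 5495 were lower in both. Vegfb was 0.29 higher in Nkx2-1 high replicate 3 than the mean of the other high samples, and 0.06 higher in Nkx2-1 low replicate 3. Tek and Angpt1 were lower in replicate 3 of both groups, Tek by -0.25 in Nkx2-1 high and -0.20 in Nkx2-1 low, and Angpt1 by -0.42 in Nkx2-1 high and -0.15 in Nkx2-1 low. All 12 mesenchyme markers were lower in replicate 3 of both groups as well. The labels do not say what samples of one number share, and no test was made on this pattern. Without both samples numbered 3, the same 3 members rose, with differences of 1.15 for Flt4, 0.91 for Tek and 0.49 for Vegfc (limma adjusted p = 0.000580, 0.00210 and 0.0395), and Vegfa differed by 0.15 (adjusted p = 0.492).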

How the data were processed

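Expression was measured on 1-colour arrays in 3 Nkx2-1 high and 3 Nkx2-1 low samples. Per the labels' protocols, total RNA of biological replicates went through WT-Ovation Pico amplification and then biotin labelling. The deposited values are log2 expression values, made by the authors with RMA per the submitters' processing notes, and the log2 scale was taken from that and from array medians of 4.98 to 5.06. For RMA no version is given in the sources used here, nor is a genome build. Slides, scan dates and detection calls were not used here, and the number of arrays limits the precision.

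Of 29011 rows, 21789 carried a single symbol in the platform annotation, and all but 91 of these matched RefSeq by Entrez ID. The row with the highest mean per gene gave 19938 genes. All were fitted with limma 3.58.1 in R 4.3.3 (group as the only term, eBayes), with Benjamini-Hochberg adjustment over all genes and a threshold of 0.05, and the fit was tested on simulated data. Adjusted p-values are from limma, and differences are Nkx2-1 high minus Nkx2-1 low ± SE. The background level was the 95th percentile of all values of 1210 chemosensory receptor rows, and 32.8% of genes were under it in both groups.

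The members, the gene lists and the alternatives were chosen with earlier results of these data known. The lists hold at most 34 genes, and genes on rows of several symbols or none were not used here. Named genes are the members, Nkx2-1, defining markers, up to 4 called genes per list (or 2 where none was called) and the 3 nearest profiles. Ccbe1, Nrp2, Adamts3, Aplnr, Fn1, Id2, Hif1a, Epas1, Slc2a1, P4ha2 and Hk2 were chosen after their values were seen. So were Plvap, Lmo2, Egfl7, Fli1, Rasip1, Sox7, Acta2, Kcnj8 and Tagln. Alternatives were a replicate block, array weights, cyclic loess, median-centred arrays, robust eBayes with a variance trend, a fit of genes above background alone, other handling of rows, leaving out samples, a threshold of 0.01 and other background levels.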

Additional observations from a re-analysis of the deposited data

How the results depend on the processing

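Flt4 (differences 1.06 to 1.15, adjusted p up to 0.000802) and Tek (0.81 to 0.98, adjusted p up to 0.00739) kept direction and call in all 16 alternatives. Vegfc (0.32 to 0.49) kept its call in 10. It was lost in 5 of the 6 fits without 1 sample, where its difference ran from 0.32 to 0.45, and at the threshold of 0.01 (difference 0.39). Angpt1 was called lower with only genes above background (-0.63), with a variance trend and robust eBayes (-0.63), with array weights (-0.54) and with the replicate block (-0.63, adjusted p = 0.00743), and in the fits without 1 sample it ran from -0.76 to -0.47. Differences near zero changed sign for Angpt2 when Nkx2-1 high replicate 3 (-0.00522) or Nkx2-1 low replicate 1 (-0.00495) was left out, with 0.0355 as the highest such value, and for Kdr without both samples numbered 3 (0.0238). Vegfa, Vegfb, Flt1 and Tie1 kept direction and stayed uncalled in all 16.

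The count of members called ran from 2 to 4. The count of all genes called was 507 at the threshold of 0.01 and 624 to 1086 without 1 sample. Leaving out Nkx2-1 high replicate 1 or 2 gave 772 and 624, and leaving out Nkx2-1 low replicate 1 or 2 gave 765 and 709. Of the 10 members, 4 were above background in at least 1 group at the 99th percentile of the receptor rows: Vegfa, Vegfb, Vegfc and Flt4. At the median of all rows 6 were, with Kdr and Tek added. The values of the dimmer members, Tek among them, therefore have little signal over background. Same-numbered samples deviated together for numbers 1 and 3 (r = 0.181 and 0.277 across genes) but not 2 (r = -0.004). Between samples of unlike number r ran from -0.269 to 0.146, the latter for Nkx2-1 high replicate 2 with Nkx2-1 low replicate 1. These values cannot settle whether the samples are pairs, and the labels do not say, so the main fit has no block. The replicate block raised the count of called genes to 1470 and, besides Angpt1, changed no member's call among the 10. In the lists it called 8 in place of 4 of the other VEGF and angiopoietin genes, 2 in place of 1 endothelial marker, 2 in place of 1 endoderm and epithelial marker and 2 in place of 0 mural markers. The causes were not tested.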
